A study of Mus musculus with 48 samples.

Results

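A set of 7 genes of sugar uptake and glucose sensing was followed in sorted enteroendocrine cells of the mouse gut: the sugar transporters Slc5a1, Slc2a1, Slc2a2 and Slc2a5, the fructose kinase Khk, and Kcnj11 and Abcc8, the 2 subunits of the ATP-sensitive potassium (KATP) channel. They were taken by name, 7 of the 53465 genes listed, and all 7 were among the 15126 genes that passed the filter on low counts. None was at 0 in any library.

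The cells came from lean male Neurod1-cre/EYFP mice on a C57BL6 background, about 20 weeks old at surgery. In these mice Cre recombinase, driven by the promoter of the enteroendocrine transcription factor Neurod1, switches on a yellow fluorescent protein, which stays on in any cell descended from one that made Cre. VSG mice had vertical sleeve gastrectomy, in which most of the stomach is removed. Sham mice had a suture line placed without closing off the stomach, and were fed ad libitum (S_al) or in restricted meals that matched their weight to that of the VSG mice (S_wm). All groups ate a liquid diet around the time of surgery and chow afterwards. VSG mice were also given vitamin B12 weekly by injection, and its effects cannot be told apart from those of surgery. At 6 weeks after surgery they were fasted overnight, given 3 g/kg glucose by gavage, and dissected soon afterwards, so that no library shows the cells without glucose. Each region (duodenum, the top 5 cm of the small intestine; ileum, its bottom 15 cm; colon with rectum) had 5 S_al, 5 S_wm and 6 VSG libraries, 48 in all from 17 mice (at most 1 per region from each mouse), with 4648651 to 17182463 counts per library.

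Levels are given as CPM, the counts scaled to a fixed library size after TMM normalisation, and as RPKM, the CPM divided by the exon length in kilobases, where genes are compared with each other. Sorted-cell markers (Neurod1, Chga, Chgb, Scg2, Pcsk1, Pax6) were present in every region, their summed level ranging from 28690 to 98690 CPM outside 1 library. That library, the duodenum of S_wm mouse 27, had 11470 CPM of these markers against 36250 to 72550 CPM in the other 15 duodenum libraries. It also had 46630 CPM of 14 enterocyte markers, against 5392 to 14410 CPM, 3744 CPM of Paneth cell markers, against 122 to 795 CPM, and 1846 CPM of immune markers, against 21.2 to 632 CPM. Results that rest on it are given with and without it. For mouse 12, the description codes of the ileal and colonic libraries are crossed with their tissue labels. The colon gene Hoxb13 was at 58.3 CPM in the library labelled colon and at 0 in the one labelled ileum, and the labels were used. In sorted bulk cells, fewer cells of one kind and less RNA per cell cannot be told apart.

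On build GRCm38, with GENCODE M21 coordinates, Slc5a1 (ENSMUSG00000011034) lies at chr5:33104219-33162870 and Khk (ENSMUSG00000029162) at chr5:30921431-30931248. Slc2a1 (ENSMUSG00000028645) lies at chr4:119108711-119137983, Slc2a5 (ENSMUSG00000028976) at chr4:150119283-150144169 and Slc2a2 (ENSMUSG00000027690) at chr3:28697903-28731359, all on the plus strand. Kcnj11 (ENSMUSG00000096146, chr7:46093953-46100764) and Abcc8 (ENSMUSG00000040136, chr7:46104523-46180033) are neighbours on the minus strand.

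Glucose enters enteroendocrine cells, as it enters absorptive enterocytes, with sodium through SGLT1, the product of Slc5a1, and the current that comes with the sodium depolarises the cell. GLUT2 (Slc2a2) lets glucose and fructose through the basolateral membrane, GLUT5 (Slc2a5) takes up fructose, and GLUT1 (Slc2a1) is a widespread basal glucose transporter. In the pancreatic beta cell, metabolism of glucose raises ATP, which closes the channel formed by Kir6.2 (Kcnj11) and SUR1 (Abcc8). The same channel is present in cells that make the incretin hormones GLP-1 and GIP. Ketohexokinase (Khk) phosphorylates fructose at the start of its breakdown.

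Slc2a2 fell most along the gut, Slc2a1 was the only one of the 7 to rise towards the colon, and Slc5a1 had the highest level, so the bases just before their annotated starts are shown. They are the plus strand of build GRCm38.p6 in RefSeq's promoters, which held 5 of the 7 genes (not Kcnj11 or Abcc8), and each stops before the first exon. Capitals mark matches on either strand to GGGCGG (GC box), CACGTG (E-box) or GATAA (GATA site).
Slc5a1, chr5:33103969-33104218: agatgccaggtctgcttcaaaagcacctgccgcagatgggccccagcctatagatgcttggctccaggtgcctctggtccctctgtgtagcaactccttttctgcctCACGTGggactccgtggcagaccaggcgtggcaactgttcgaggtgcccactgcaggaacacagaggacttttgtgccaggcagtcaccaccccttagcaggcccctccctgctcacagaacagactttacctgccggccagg
Slc2a2, chr3:28697653-28697902: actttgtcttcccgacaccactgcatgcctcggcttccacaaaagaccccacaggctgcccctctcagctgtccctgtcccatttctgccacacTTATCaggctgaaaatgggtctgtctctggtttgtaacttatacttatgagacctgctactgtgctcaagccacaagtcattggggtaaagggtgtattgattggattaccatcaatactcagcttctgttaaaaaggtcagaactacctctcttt
Slc2a1, chr4:119108495-119108710: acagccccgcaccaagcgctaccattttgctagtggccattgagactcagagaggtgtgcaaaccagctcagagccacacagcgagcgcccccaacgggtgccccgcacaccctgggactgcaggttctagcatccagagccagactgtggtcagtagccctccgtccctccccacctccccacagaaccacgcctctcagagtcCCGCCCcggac
The Slc5a1 stretch was 60% G or C and held 1 E-box, a motif in 6.02% of 32851 promoters over the 250 bases before the start. The Slc2a2 stretch was 47.2% G or C and held 1 GATA site on the opposite strand, found in 22.6% of promoters. The Slc2a1 stretch was 63.9% G or C, with 1 GC box, and a further GC box lay past its end. This motif was found in 32.7% of promoters over the 250 bases. No match to GTTAAT (part of an HNF1 site, in 6.43% of promoters) or TTTAT (a CDX site, in 37.3%) was present in the 3 stretches. The motifs did not overlap each other. These are matches of letters and not sites of binding.

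Slc5a1 had the highest level per length of the 7 genes in all 3 regions. Its mean was 177 RPKM in the duodenum (SD 288), 177 RPKM in the ileum (SD 71.8) and 38.04 RPKM in the colon (SD 7.73), each over 16 libraries. Without the library of mouse 27 the duodenum mean was 105.5 RPKM (SD 32.1, n = 15). In every library it stood above the next gene in order. In the duodenum and ileum this was Khk, at 27.4 and 28.9 RPKM, and in the colon it was Slc2a1, at 25.6 RPKM.

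Below Slc5a1 the order differed between regions. In the duodenum, Khk was followed by Slc2a2 at 18.4 RPKM, Slc2a5 at 15.8 RPKM and Abcc8 at 14.6 RPKM. Without mouse 27 the means were 21.3 RPKM for Khk, 15.3 RPKM for Abcc8, 11.1 RPKM for Slc2a5 and 8.97 RPKM for Slc2a2, the last 3 in reverse order. With it the order did not hold in most libraries, since Slc2a2 exceeded Slc2a5 in only 4 of 16 libraries and Slc2a5 exceeded Abcc8 in 3. Kcnj11 at 7.73 RPKM exceeded Slc2a1 at 5.69 RPKM in 13 of 16 libraries. In the ileum, Slc2a5 (8.98 RPKM), Abcc8 (8.01 RPKM) and Slc2a2 (7.78 RPKM) again differed by less than their spread, and Kcnj11 was lowest at 3.44 RPKM. In the colon Slc2a1 came second, above Khk in all 16 libraries, and Slc2a2 came last at 0.263 RPKM (SD 0.247).

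**Figure D1:**
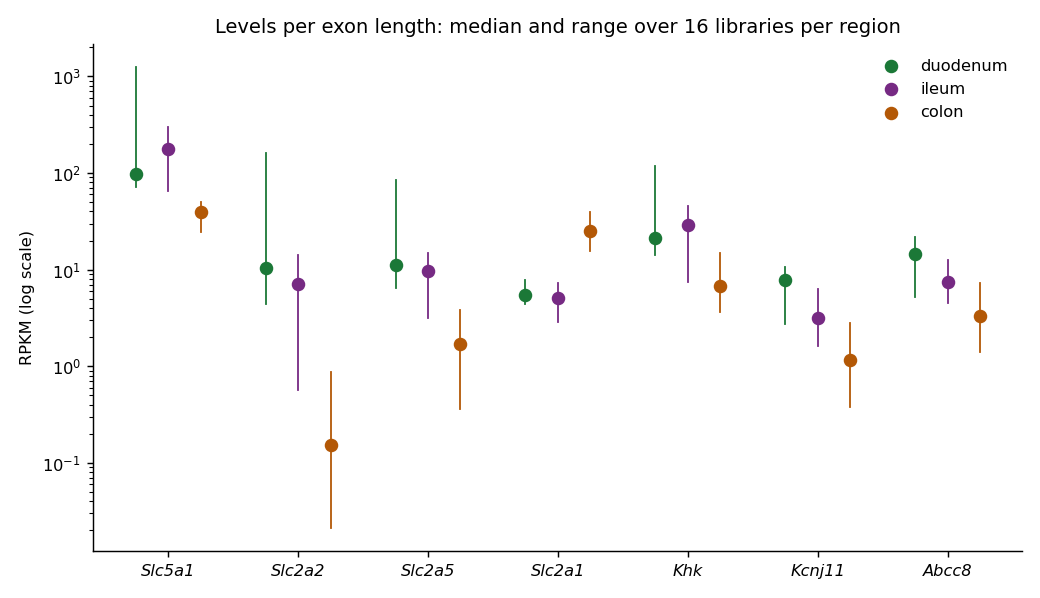
Level of each gene per kilobase of exon (RPKM, log axis) in the duodenum, ileum and colon. Points are medians and lines span the lowest to the highest of 16 libraries. Slc5a1 is highest in each region, Slc2a1 is highest in the colon, and Slc2a2 is lowest of all in the colon.

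The transporters that load and pass on dietary sugar were high in the small intestine and low in the colon. Slc5a1 ranged from 292 to 5133 CPM in the duodenum (median 403), from 265 to 1235 CPM in the ileum (median 730) and from 102 to 207 CPM in the colon (median 161). The colon did not overlap either part of the small intestine. The median of Slc2a2 was 60.4 CPM in duodenum, 40.8 CPM in ileum and 0.881 CPM in colon libraries. Its colon libraries held 154 counts in sum, against 13012 in the duodenum (6361 of them from mouse 27) and 4135 in the ileum. Slc2a5 had medians of 37.7, 33.1 and 5.76 CPM in the same order. Its colon range of 1.23 to 13.03 CPM lay below the whole duodenum range, and just reached the lowest ileum libraries at 10.8 CPM.

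Slc2a1 ran the other way. It was at 15.4 to 27.5 CPM in the duodenum, 10.1 to 25.4 CPM in the ileum and 54.3 to 138 CPM in the colon, so that every colon library stood above every library of the small intestine.

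The KATP genes stepped down from proximal to distal gut. Kcnj11 had a median of 29.1 CPM in the duodenum (9.97 to 39.5), 11.6 CPM in the ileum (5.93 to 23.4) and 4.30 CPM in the colon (1.39 to 10.2). Abcc8 had medians of 118, 59.7 and 26.6 CPM. Neighbouring regions overlapped for both genes. Both subunits had this course. The ratio of Abcc8 to Kcnj11, both in RPKM, had a duodenum mean of 1.91 ± 0.372, an ileum mean of 2.45 ± 0.659 and a colon mean of 2.83 ± 1.16 (SD, n = 16 each). These ranges overlapped. Khk, in contrast, had similar medians in the duodenum (38.4 CPM) and ileum (51.5 CPM) and a lower one in the colon (12.2 CPM).

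**Figure D2:**
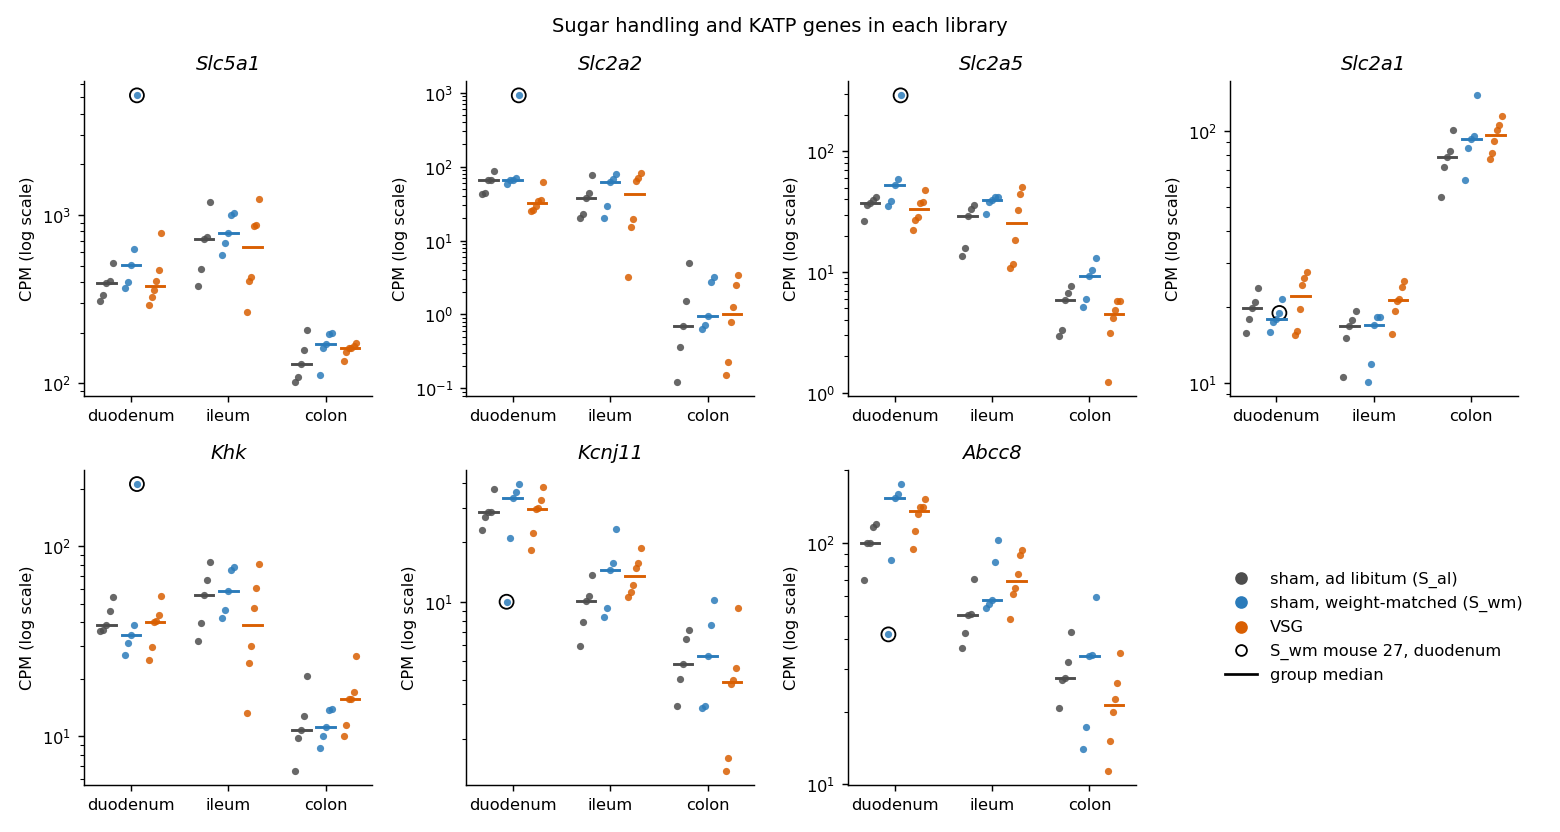
CPM of each gene (log axis) in each of the 48 libraries, by region and surgery group, with a line at the group median. The ringed library is the duodenum of S_wm mouse 27, which is highest for Slc5a1, Slc2a2, Slc2a5 and Khk and lowest among duodenum libraries for Kcnj11 and Abcc8. Slc2a1 is higher in the colon in all groups.

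Region means, each taken over the 3 surgery groups, were compared by edgeR's quasi-likelihood test across all 15126 genes, with Benjamini-Hochberg adjustment at 0.05. Between colon and duodenum all 7 genes passed, 1 higher and 6 lower, beside 55% of all genes tested. Between colon and ileum all 7 again passed in the same directions, beside 49.2% of all genes. Between ileum and duodenum 3 of 7 passed, all lower in the ileum, beside 33.8%. With these backgrounds a count of calls says little by itself, and the sizes are of more use. The median log2 fold change of the 7 genes was -2.09 from duodenum to colon, -1.99 from ileum to colon and -0.70 from duodenum to ileum, against -0.015, -0.011 and 0.0045 over all genes tested.

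Slc2a2 had the largest fall. Its log2 fold change in the colon was -5.76 (SE 0.51, adjusted p = 7.28e-13) against the duodenum, or 54.3-fold lower, and -4.92 (SE 0.50, adjusted p = 6.41e-11) against the ileum. Slc2a5 had log2 fold changes of -3.08 (SE 0.27) and -2.38 (SE 0.27), Slc5a1 of -2.00 (SE 0.27) and -2.23 (SE 0.27), and Khk of -1.89 (SE 0.25) and -1.99 (SE 0.25). Slc2a1 was higher in the colon, with log2 fold changes of 2.16 (SE 0.11, adjusted p = 6.69e-23) against the duodenum and 2.37 (SE 0.11, adjusted p = 1.32e-23) against the ileum. That is 4.48-fold and 5.15-fold.

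From duodenum to colon Kcnj11 and Abcc8 fell, with log2 fold changes of -2.50 (SE 0.21) and -2.09 (SE 0.18), and from ileum to colon with -1.30 (SE 0.21) and -1.21 (SE 0.18). They were also lower in the ileum than in the duodenum, by log2 fold changes of -1.20 (SE 0.19, adjusted p = 2.56e-06) and -0.88 (SE 0.17, adjusted p = 6.72e-05). Slc2a5 was the third gene lower in the ileum, with -0.70 (SE 0.24, adjusted p = 0.0215). Slc2a2 had -0.85 (SE 0.37, adjusted p = 0.0765), and with the mouse as a replicate block in limma voom -0.90 (adjusted p = 0.0284), past the threshold. Without the duodenum library of mouse 27 it had -0.23 (SE 0.30, adjusted p = 0.592) in edgeR. Slc5a1 had 0.23 (SE 0.26), Khk 0.10 (SE 0.23) and Slc2a1 -0.20 (SE 0.11), none of which passed.

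The comparison of ileum with duodenum rested on the duodenum library of mouse 27 for the sugar genes but not for the channel genes. Without that library 38.3% of 15457 genes passed, and 4 of the 7. Slc5a1 then rose from duodenum to ileum, with a log2 fold change of 0.75 (SE 0.17, adjusted p = 0.000495), and so did Khk, with 0.46 (SE 0.18, adjusted p = 0.0383). Slc2a5 no longer passed, at -0.35 (adjusted p = 0.134). Kcnj11 and Abcc8 had -1.27 and -0.96. Between colon and duodenum all 7 genes still passed without the library, beside 56.4% of all genes, and Slc2a2 had -5.12 (SE 0.40).

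The i5 library index was also unevenly spread, since ileum and duodenum shared only 1 of its 4 values (7 ileum and 4 duodenum libraries, mouse 27 among the latter). With the index as a covariate the log2 fold changes from duodenum to ileum were -0.65 for Kcnj11 (adjusted p = 0.273) and -0.20 for Abcc8 (adjusted p = 0.777), while Slc2a2 had -1.96 (adjusted p = 0.0257) and Slc2a5 -1.55 (adjusted p = 0.00492). Without the library of mouse 27 as well, Kcnj11 had -1.06 (SE 0.41, adjusted p = 0.159), Abcc8 -0.63 (SE 0.38, adjusted p = 0.462), Slc2a2 -0.31 (adjusted p = 0.911) and Slc2a5 -0.45 (adjusted p = 0.720), and none of the 7 genes passed (1 had an unadjusted p under 0.05). Among libraries of the shared index alone, without mouse 27, the difference in mean log2 CPM was -1.15 for Kcnj11, -0.48 for Abcc8 and 0.70 for Slc5a1. The fall of the channel genes from duodenum to ileum thus kept its direction but not its call. All 7 genes passed between the colon and both other regions in these fits, although only 1 colon library shared an index with duodenum libraries. The shares of all genes that passed in the fits with the index were not counted, so these counts say little by themselves.

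**Figure D3:**
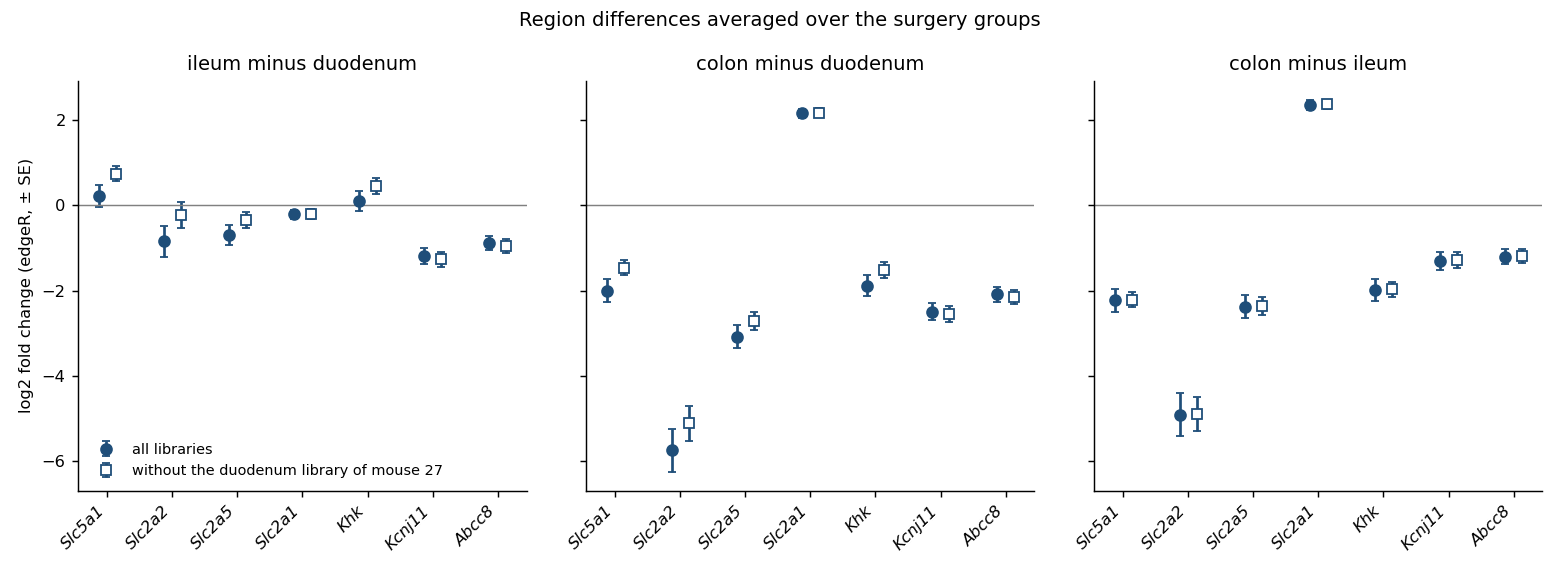
Log2 fold changes between regions (edgeR, averaged over the surgery groups, bars are SE), with all 48 libraries (filled circles) and without the duodenum library of mouse 27 (open squares). Slc2a1 is the only one of the 7 genes higher in the colon. Without that library, Slc5a1 and Khk lie further above 0 in the comparison of ileum with duodenum.

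Markers of other cells moved with region. From duodenum to colon all 14 enterocyte markers fell (median log2 fold change -5.19), and their summed level was 425 to 836 CPM in the colon against 4311 to 15090 CPM in the ileum. All 6 colonocyte markers were higher in the colon, at 737 to 2859 CPM in sum against 28.9 to 347 CPM in the duodenum. Of the 6 sorted-cell markers, 1 rose and 4 fell from duodenum to colon (median log2 fold change -1.49), and of the crypt markers 3 of 5 fell. From ileum to colon 4 of the 6 sorted-cell markers fell (median log2 fold change -0.88). From duodenum to ileum 3 of 6 sorted-cell markers fell (median log2 fold change -0.42), all 5 Paneth cell, 3 of 5 goblet and 3 of 5 crypt markers rose, and of the enterocyte markers 3 rose and 4 fell. No enterocyte or colonocyte marker was at 0 over the libraries of a region. Tissue from the colon was also dissociated with more EDTA. What part these had in the differences between regions was not tested.

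Within the duodenum and within the ileum, Slc5a1, Slc2a2, Slc2a5 and Khk followed the enterocyte markers. In the duodenum this rested in part on the library of mouse 27. No relation of Slc2a1 or the channel genes, and none in the colon, passed the threshold. The log2 level of each gene was compared with the log2 summed level of the 14 enterocyte markers, both centred on the surgery groups, in 21 relations (7 genes in 3 regions, 16 libraries each) with permutation tests within groups. After Benjamini-Hochberg adjustment 8 relations passed, all positive. They were those of Slc5a1, Slc2a2, Slc2a5 and Khk in the duodenum and the ileum, with adjusted permutation p between 0.00049 and 0.00753. The share of all genes that would pass this test was not counted, so the count of relations says little by itself.

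In the ileum, Pearson's r was 0.902 for Slc5a1 (rho 0.873, permutation p = 7e-05, adjusted 0.00049), 0.913 for Slc2a2 (rho 0.932), 0.845 for Slc2a5 (rho 0.806) and 0.908 for Khk (rho 0.903). Without the 2 libraries farthest from the median marker level these were 0.863, 0.946, 0.798 and 0.911. For Kcnj11 in the ileum r was -0.416 (rho -0.388, permutation p = 0.107), and for Abcc8 it was 0.0461 (rho 0.0294, permutation p = 0.873).

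In the duodenum r was 0.928 for Slc5a1 (rho 0.83), 0.942 for Slc2a2 (rho 0.879), 0.892 for Slc2a5 (rho 0.779) and 0.924 for Khk (rho 0.812). Without the 2 farthest libraries (mice 27 and 32) these were 0.604, 0.566, 0.769 and 0.481. Without only the library of mouse 27, r was 0.598 for Slc5a1 (adjusted permutation p = 0.0121), 0.652 for Slc2a2 (0.0373), 0.571 for Khk (0.0453) and 0.439 for Slc2a5 (0.166), the last not past the threshold. With the library, Kcnj11 had r = -0.658 and Abcc8 r = -0.681 (adjusted permutation p = 0.231 and 0.226), and without it 0.133 and 0.131. Slc2a1 had r between 0.122 and 0.444 in the 3 regions, none past the threshold. The highest was in the ileum, where rho was 0.503 (permutation p for rho = 0.0471, adjusted 0.110). In the colon no gene passed, the highest r being 0.526 for Slc2a2 (permutation p = 0.0712).

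**Figure D4:**
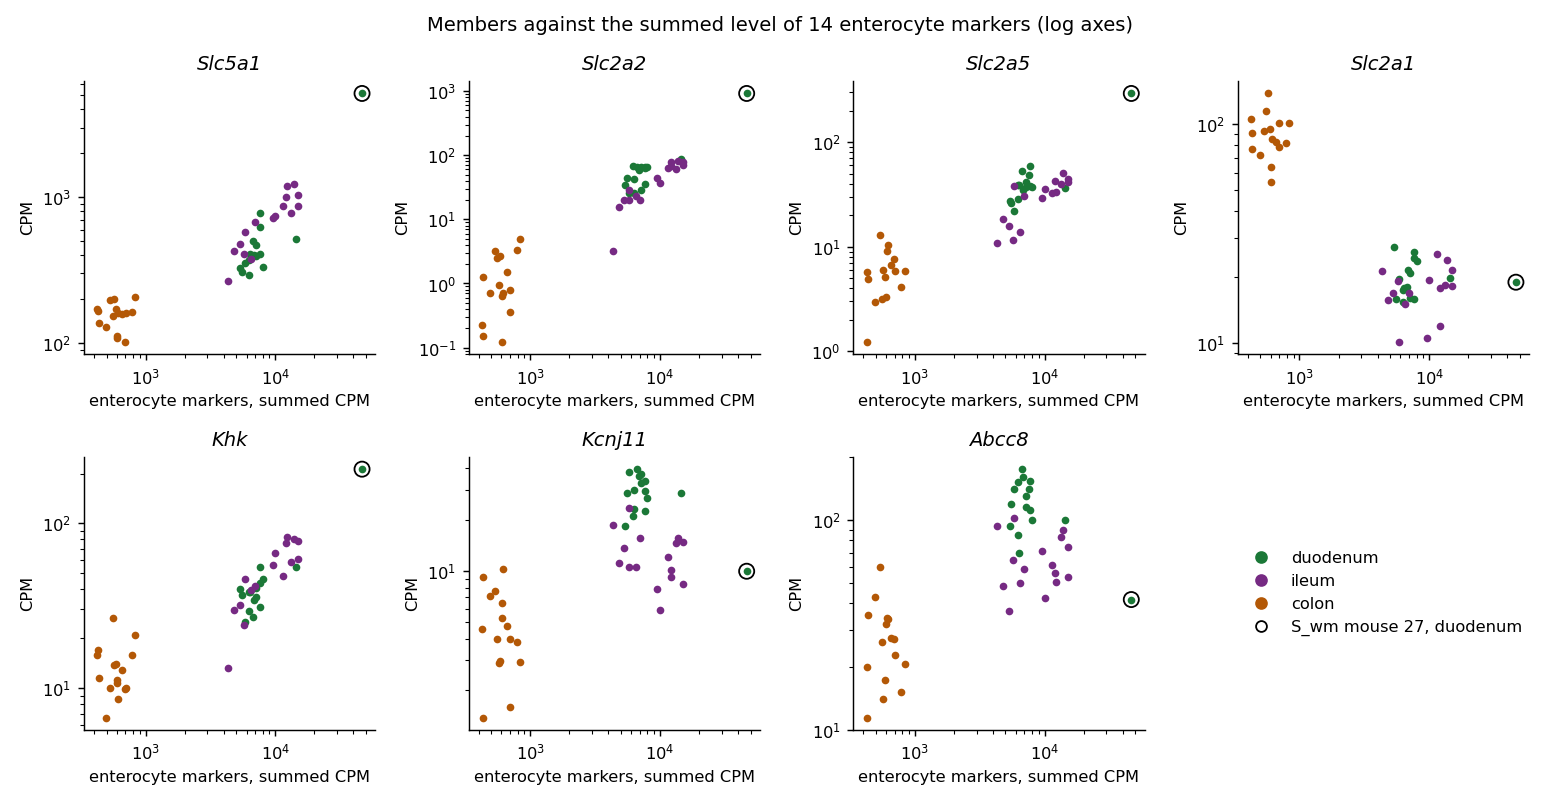
CPM of each gene against the summed CPM of 14 enterocyte markers in each library (both log axes), coloured by region, with the duodenum library of mouse 27 ringed. Slc5a1, Slc2a2, Slc2a5 and Khk rise with the markers in the duodenum and ileum, whereas no relation of Kcnj11, Abcc8 or Slc2a1 within a region passed the threshold.

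The genes whose levels were most like those of each member over the 48 libraries are given as a description, since all libraries share the differences between regions. For Slc5a1 these were Acsl5, Slc27a4 and Mpp1 (Pearson's r 0.954 to 0.974). For Slc2a2 they included Mme (0.967) and Treh, the brush border trehalase (0.966). Treh, and Fabp2 named further on, are also on the enterocyte marker list. Slc2a5 was closest to Treh, Slc2a2 and Faah (0.928 to 0.931), and Khk to Guca2b, Dgat1 and Acsl5 (0.938 to 0.941). Slc2a1 was closest to Cyp2d34, Klk1 and Nxpe2 (0.955 to 0.965).

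Kcnj11 was closest to its channel partner Abcc8 (0.944), with Aplp1 (0.927) also among its 3 closest. Those of Abcc8 included Aplp1 (0.948) and Kcnj11 (0.944).

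After the 9 group means were removed, Kcnj11 was still closest to Abcc8 (0.760, and 0.707 without the duodenum library of mouse 27). The 3 closest to Abcc8 included Ffar1 (0.837), which encodes a receptor for long-chain fatty acids, and Trim35 (0.815). Those closest to Slc2a2 included Guca2b (0.871) and Fabp2 (0.853), and those closest to Khk included Gdpd2 (0.884) and Vmp1 (0.883). Slc5a1 was closest to Acsl5 (0.945), Ifi27l2b and Pls1, and those closest to Slc2a5 included Pepd (0.822) and Nat8f5 (0.800). Slc2a1 was closest to Gtf3a (0.674), Slc25a39 and Trappc6a. Without the duodenum library of mouse 27 its closest genes were instead Tmem54 (0.706), Capzb (0.699) and Gpa33 (0.676). Trim35, Vmp1 and Nat8f5 were then no longer among the 3 closest to Abcc8, Khk and Slc2a5. Values of r were then 0.789 for Abcc8 with Ffar1, 0.882 for Slc5a1 with Acsl5 and 0.726 for Slc2a5 with Pepd. Among the 7 genes themselves, Slc5a1 and Khk had r = 0.842 (0.737 without the library of mouse 27), Slc2a2 and Khk 0.824 (0.759), and Kcnj11 and Khk -0.507 (-0.363).

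Surgery was then compared with each sham group, the S_wm mice serving to separate it from weight. None of the 7 genes passed the threshold in any of 12 surgery contrasts, in edgeR, nor in the joint test of surgery by region, in which 1 of 7 had an unadjusted p under 0.05. Between VSG and S_al mice 0% of genes tested passed for the mean of regions, the duodenum, the ileum and the colon, while 370 to 950 genes had an unadjusted p under 0.05. Between VSG and S_wm mice 0.245% passed for the mean of regions, 0.225% in duodenum libraries, 0.0463% in ileum and 0.0595% in colon libraries. Between S_wm and S_al mice these were 0.0529% for the mean, 0% in duodenum and 0% in ileum libraries, and 0.0132% in colon libraries. The joint test passed 0%, with 741 genes at an unadjusted p under 0.05. The 2 contrasts of S_wm and S_al mice at 0% had 990 and 1188. Members with an unadjusted p under 0.05 numbered 1 to 4 in 8 of the 12 contrasts and 0 in the others. Over the 12 contrasts 2.45% to 9.92% of all genes tested had one. The contrasts with 4 members were those of VSG and S_wm mice for the mean of regions (9.92% of all genes) and the duodenum (8.71%). DESeq2 called 3 members between VSG and S_wm mice in the duodenum and 1, Slc2a5, for the mean of regions. The share of all genes that DESeq2 called was not counted.

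The sugar genes had their widest surgery differences in the duodenum, where 1 S_wm library stood far above the rest. Slc5a1 was at 5133, 625, 501.5, 402 and 370 CPM in the 5 S_wm mice. It was at 292 to 782 CPM in the 6 VSG mice (median 380) and at 308, 334, 394, 407 and 520 CPM in the 5 S_al mice. Apart from mouse 27 at 5133 CPM the groups overlapped throughout. Slc2a2 was at 919, 69.0, 66.3, 65.0 and 58.2 CPM in S_wm mice, 25.4 to 62.6 CPM in VSG mice (median 31.8) and 43.2, 43.5, 65.4, 65.5 and 85.9 CPM in S_al mice. Here 5 of the 6 VSG libraries stood below every sham library, and the VSG library of mouse 28, at 62.6 CPM, stood among them. Between VSG and S_al mice the log2 fold change of Slc2a2 was -0.77 (SE 0.63, adjusted p = 1).

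The log2 fold change of Slc2a2 between VSG and S_wm mice in the duodenum was -2.73 (SE 0.65, adjusted p = 0.0526), and that of Slc5a1 was -1.68 (SE 0.45, adjusted p = 0.0778). Slc2a5 had -1.51 (SE 0.40, adjusted p = 0.0805) and Khk -0.82 (SE 0.39, adjusted p = 0.538). None passed in edgeR, while 3 did in DESeq2 (Slc2a5, Slc2a2 and Slc5a1, each with an adjusted p of 0.0155 or 0.0156). Without the library of mouse 27 the values were -0.87 (SE 0.52) for Slc2a2, -0.12 (SE 0.30) for Slc5a1, -0.47 (SE 0.32) for Slc2a5 and 0.24 (SE 0.32) for Khk, and 0% of 15457 genes passed. The lowest unadjusted p among the 7 was then 0.102, in edgeR. The opposite contrast with the same library, S_wm against S_al mice in the duodenum, had log2 fold changes of 1.84 (SE 0.48, adjusted p = 0.486) for Slc5a1, 1.96 (SE 0.67, adjusted p = 0.615) for Slc2a2 and 1.40 (SE 0.43, adjusted p = 0.541) for Slc2a5. Without the library of mouse 27 these were 0.27 (SE 0.31), 0.092 (SE 0.55) and 0.36 (SE 0.34). These contrasts share the S_wm libraries.

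In the library of mouse 27 the channel genes and the sugar genes parted. Slc2a2 was 15.8 times, Slc5a1 12.8 times, Slc2a5 7.78 times and Khk 5.55 times the median of the other 15 duodenum libraries. Kcnj11 was at 0.338 of it and Abcc8 at 0.348, below every other duodenum library. The neuroendocrine genes Neurod1 (142 CPM against 467 to 956) and Chga (3889 CPM against 10280 to 24540) were low in the same library. Slc2a1, at 18.9 CPM, stood within the range of the others.

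**Figure D5:**
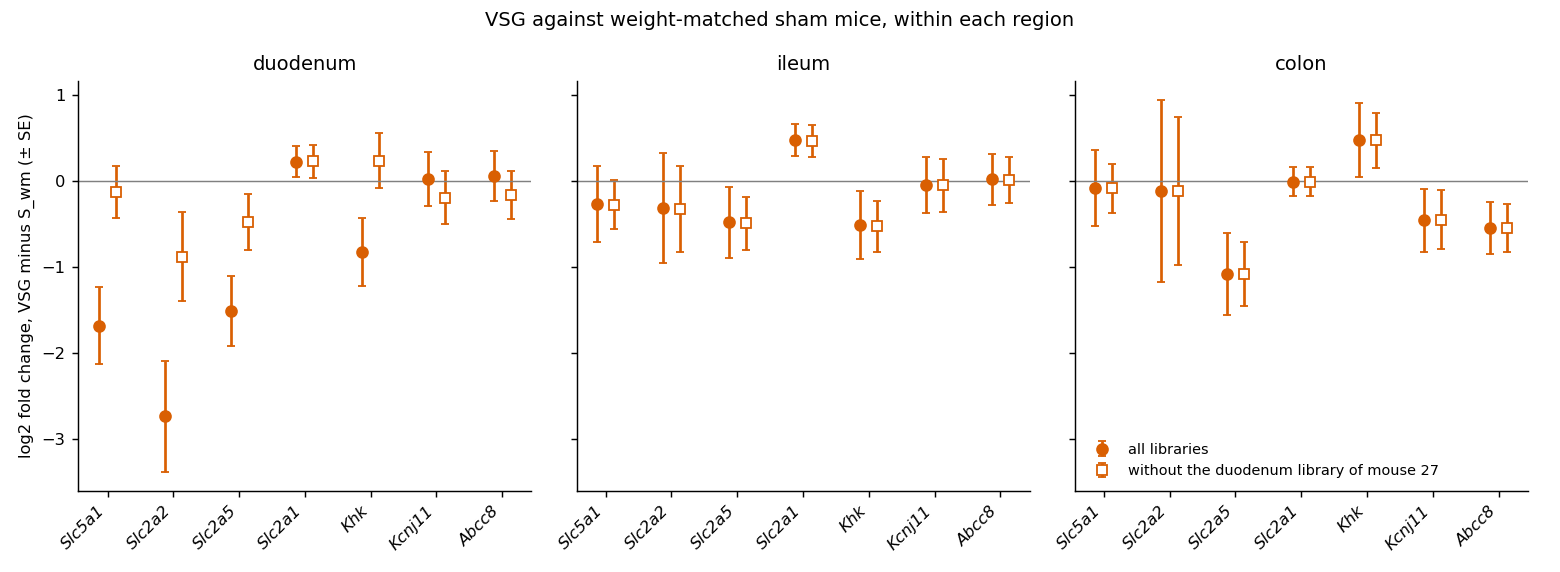
Log2 fold changes between VSG and weight-matched sham mice within each region (edgeR, bars are SE), with all libraries (filled circles) and without the duodenum library of mouse 27 (open squares). The low values of Slc5a1, Slc2a2, Slc2a5 and Khk in the duodenum move towards or past 0 without it, and none of the values passed the threshold.

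The mean of regions includes that library too. For it between VSG and S_wm mice, log2 fold changes were -1.02 for Slc2a5 (SE 0.25, adjusted p = 0.0619, and 0.00579 in DESeq2), -1.05 for Slc2a2 (SE 0.47, adjusted p = 0.433), -0.67 for Slc5a1 (SE 0.26, adjusted p = 0.327) and 0.24 for Slc2a1 (SE 0.10, adjusted p = 0.424). Without the library these were -0.68 (SE 0.19, adjusted p = 0.154), -0.44 (SE 0.38), -0.16 (SE 0.17) and 0.23 (SE 0.10). Between S_wm and S_al mice Slc2a5 had 0.90 (SE 0.26, adjusted p = 0.489) and Slc5a1 0.77 (SE 0.27, adjusted p = 0.633), and without it 0.56 (SE 0.20, adjusted p = 0.626) and 0.25 (SE 0.17, adjusted p = 0.872).

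In the colon Slc2a5 was at 5.17 to 13.03 CPM in S_wm mice (median 9.21), 1.23 to 5.81 CPM in VSG mice (median 4.52) and 2.95 to 7.67 CPM in S_al mice (median 5.89). The VSG and S_wm ranges touched, and the log2 fold change was -1.08 (SE 0.48, adjusted p = 1).

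Slc2a1 in the ileum was at 15.7, 19.3, 21.2, 21.6, 23.9 and 25.4 CPM in VSG mice, at 10.1, 11.9, 16.9, 18.2 and 18.3 CPM in S_wm mice and at 10.5, 15.03, 16.9, 17.8 and 19.3 CPM in S_al mice. In VSG mice 4 of 6 libraries stood above every sham library. The log2 fold change was 0.48 (SE 0.18, adjusted p = 0.614) against S_wm mice and 0.40 (SE 0.19, adjusted p = 0.789) against S_al mice. For the mean of regions it was 0.27 against S_al mice (SE 0.10, adjusted p = 0.708).

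With all libraries the KATP genes had no surgery contrast with an unadjusted p under 0.05 in edgeR. Without the duodenum library of mouse 27, Abcc8 had 0.36 (SE 0.165) between S_wm and S_al mice for the mean of regions. Its unadjusted p there was 0.0352 and its adjusted p 0.793. With the library it had 0.29 (SE 0.18, unadjusted p = 0.115). Kcnj11 in the duodenum was at 18.3 to 37.96 CPM in VSG mice (median 29.6), 9.97 to 39.5 CPM in S_wm mice (median 33.6) and 23.0 to 37.2 CPM in S_al mice (median 28.5). Abcc8 was at 94.2 to 152 CPM, 41.8 to 175 CPM and 70.1 to 120 CPM in the same order. The groups overlapped widely for both.

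Within each surgery group all 7 genes passed between colon and duodenum in edgeR, in the same directions. The shares of all genes that passed within a group were not counted. Over the 3 groups together they were 55% between colon and duodenum, 49.2% between colon and ileum and 33.8% between ileum and duodenum. The counts of calls within a group thus say little by themselves. Slc2a1 had log2 fold changes from duodenum to colon of 1.98 in S_al, 2.37 in S_wm and 2.14 in VSG mice, and Abcc8 had -1.75, -1.96 and -2.56. Slc2a2 had -5.56, -7.17 and -4.55, the S_wm value including mouse 27. From duodenum to ileum Kcnj11 had -1.57 (adjusted p = 0.00114), -0.97 (0.0656) and -1.04 (0.0181). Abcc8 had -1.01 (0.0186), -0.80 (0.0995) and -0.84 (0.0365), so that neither gene passed in S_wm mice. The S_wm values include mouse 27, whose duodenum library was the lowest for both genes. Slc2a5 and Slc2a2 passed from duodenum to ileum only in S_wm mice, mouse 27 included (adjusted p = 0.0442 and 0.0336). From ileum to colon all 7 genes passed in each group except Kcnj11 (-0.91, adjusted p = 0.0622) and Abcc8 (-0.73, adjusted p = 0.076) in S_al mice. Whether the groups differ in these was tested by the joint test of surgery by region and by the same test in each pair of groups. None of the 7 genes passed. Between VSG and S_wm mice the unadjusted p was 0.0192 for Slc2a2 and 0.0281 for Slc5a1 (both adjusted 0.9997), mouse 27 included. Between S_wm and S_al mice it was 0.0263 for Slc5a1 (adjusted 0.908). Of all genes 4.29% and 5.16% had an unadjusted p under 0.05 in these tests.

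Genes around the 7 in sugar handling were examined as lists of 62 genes, 50 of which were tested. Of these 39 differed between colon and duodenum (19 higher, 20 lower), where 55% of all genes did, and 34 between colon and ileum (17 in each direction), where 49.2% did. Between ileum and duodenum 18 differed (8 higher, 10 lower), close to the 33.8% of all genes. Their median log2 fold changes were 0.10, -0.09 and 0.09.

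Of 10 other sugar transporter genes tested, 6 fell and 3 rose from duodenum to colon. The SGLT relatives Slc5a4b and Slc5a11 were lowest, with log2 fold changes of -7.01 (SE 0.30) and -6.36 (SE 0.53). Against the ileum they had -5.94 (SE 0.30) and -6.52 (SE 0.53). Their colon libraries held only 53 and 15 counts in sum. Slc5a4a and Slc5a4b are close paralogs, and reads could be split between them. Slc2a13, which encodes a transporter of myo-inositol, rose along the gut, with log2 fold changes of 3.55 (SE 0.16) from duodenum to ileum and 4.65 (SE 0.17) from duodenum to colon. From duodenum to ileum Slc2a10 also rose (1.30), and Slc2a7 (-1.10) and Slc5a4b (-1.07) fell most. Without the library of mouse 27, Slc2a7 had -0.67 (adjusted p = 0.171).

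All 5 hexose kinase genes tested differed between colon and duodenum, 1 higher and 4 lower. The KATP relatives Kcnj8 and Abcc9 did not pass the filter on low counts.

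Of 16 glycolysis genes, 7 rose and 4 fell from duodenum to colon, and 8 rose and 1 fell from ileum to colon. Ldhb, a lactate dehydrogenase subunit, had log2 fold changes of 5.67 (SE 0.45) and 5.50 (SE 0.47), and the enolase gene Eno2 2.96 (SE 0.52) against the ileum, both from low levels of under 10 CPM in any library. Other glycolysis genes in these counts were also low. Region means were 6.005 to 9.05 CPM for Gapdh, 1.72 to 2.33 CPM for Pgk1 and 1.07 to 1.41 CPM for Pgam1. Of 7 gluconeogenesis genes, 3 rose and 3 fell from duodenum to colon, and 2 passed from duodenum to ileum, 1 in each direction. The 4 genes of fructose and polyol metabolism gave 1 higher and 2 lower in the colon. The 5 genes of carbohydrate-responsive transcription gave 2 higher and 1 lower, and the 3 sweet taste genes tested gave 2 higher.

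In the surgery contrasts 2 of the 50 genes passed, both in the duodenum between VSG and S_wm mice. The transporter gene Slc5a4a had a log2 fold change of -3.49 (SE 0.74, adjusted p = 0.0287) and Pck1, which encodes the cytosolic PEP carboxykinase, -2.22 (SE 0.52, adjusted p = 0.0477). In the library of mouse 27 they were at 70.2 and 294 CPM, against 0.450 to 9.88 and 6.94 to 121 CPM in the other 15 duodenum libraries. Without it they had -1.94 (SE 0.67) and -1.04 (SE 0.45), both with an adjusted p of 1.

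In the other surgery contrasts none of the 50 genes passed in edgeR, and 0 to 7 had an unadjusted p under 0.05. Those of lowest p were as follows. Between VSG and S_wm mice Slc5a4b had -1.57 in the ileum (SE 0.34, adjusted p = 0.0568), Slc2a7 -1.99 for the mean of regions (SE 0.49, adjusted p = 0.0656, and -1.56 without the duodenum library of mouse 27) and Fbp1 0.65 in the colon (adjusted p = 1). Between VSG and S_al mice the hexokinase gene Hk2 had 0.38 for the mean of regions (SE 0.10, adjusted p = 0.206) and 0.60 in the ileum (SE 0.17, adjusted p = 0.399), Pck1 -1.81 in the duodenum (adjusted p = 1) and Fbp2 0.23 in the colon (adjusted p = 0.777). Between S_wm and S_al mice Slc2a7 had 2.09 for the mean of regions (adjusted p = 0.489) and 4.36 in the colon (adjusted p = 1), Eno1 0.54 in the duodenum (adjusted p = 0.617, and 0.014 without that library) and Eno2 3.96 in the ileum (adjusted p = 0.378). Levels of Slc2a7 in the colon and of Eno2 in the ileum were near 0, with 15 and 66 counts in sum over the libraries of the region. Slc5a4a had the lowest p in the joint test of surgery by region (adjusted p = 1).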

How the data were processed

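RNA was sequenced from sorted EYFP-positive, CD45-negative cells of 3 gut regions of VSG and sham mice, with a stranded total RNA kit after fluorescence-activated sorting. The authors deposited 1 table of raw read counts per Ensembl gene, made with STAR 2.5.1 on build GRCm38 per the labels, without normalization and with replicates kept apart. The strand setting of the counting is not given in the sources used here, and Slc2a1 shares 105 exon bases with an antisense gene that held 4 counts. Of 53465 genes, 53360 had their identifier in GENCODE M21, which gave symbols, coordinates and exon lengths. Columns not used numbered 0.

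Here the counts were tested with edgeR 4.0.16 (R 4.3.3): filterByExpr, TMM scaling, 1 mean for each of the 9 groups of surgery and region, a quasi-likelihood fit with the robust option, and Benjamini-Hochberg adjusted p-values called at 0.05. The standard error of a log2 fold change is its absolute value divided by the square root of F. Alternatives were DESeq2 1.42.0 and its size factors, other filters, voom in limma 3.58.1 taking each mouse as a random replicate block, edgeR with a fixed term per mouse, counts summed per mouse, only the libraries compared, libraries left out, and the i5 index as a covariate. The mouse number pairs libraries of 1 animal across regions. The correlation of their deviations from the group means had a median of 0.122 over 46 pairs (-0.118 to 0.426, 26 over 0.1). Surgery groups hold different mice and were not paired. Correlations used log2(CPM + 0.5) and 100000 permutations. No pair of libraries of a group was a duplicate (the chi-square per gene was at least 8.78 in all 105 pairs). The edgeR script was tested on simulated counts. Total counts of 4648651 to 17182463 per library, and 5 or 6 mice a group, limit the precision.

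The 7 genes and the gene lists were chosen with earlier results of these data known. In the text, the 7 genes are described throughout, with statistics for each surgery contrast whose unadjusted p was under 0.05. Of the genes of the lists, the 2 with the largest change in each direction were named in each region contrast, and in each surgery contrast those past the threshold or, where there was none, the 1 of lowest p. The 3 genes most like each member were found by Pearson's r and named, except where a gene is not reported here.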

Additional observations from a re-analysis of the deposited data

Results flagged for a closer look

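Within each of the 9 groups of surgery and region, the highest and lowest library of each of the 7 genes was compared with the rest of its group by Dixon's ratio. Of 63 sets of libraries searched, 6 held a library far from the others. The critical values are set for about 1 in 20 by chance among independent, normally distributed values. CPM were used here without logs and the sets share libraries, so that rate does not apply to this count. All 6 came from the duodenum libraries of mice 27 and 28. The S_wm duodenum library of mouse 27 accounted for 4 of them, with Slc5a1 at 5133 CPM (the next highest at 625), Slc2a2 at 919 CPM (69.0), Slc2a5 at 291 CPM (58.9) and Khk at 213 CPM (38.4). Enterocyte markers were high and sorted-cell markers low in the same library, as given above.

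The other 2 came from the VSG duodenum library of mouse 28, with Slc5a1 at 782 CPM (the next highest at 472) and Slc2a2 at 62.6 CPM (35.2). Their ratios of gap to range were 0.633 and 0.736, the first close to the critical value.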

How the results depend on the processing

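Of 430 recomputed counts of genes called, 420 stayed within 1.5 times the reported count. This compares counts only, many of them 0 or 7, and not which genes passed. With the i5 index as a covariate Slc2a2 and Slc2a5 passed between ileum and duodenum, and Kcnj11 and Abcc8 no longer did. Without the duodenum library of mouse 27 Slc5a1 and Khk passed there, and Slc2a5 no longer did. Between VSG and S_wm mice in the duodenum, where 0 of the 7 genes passed, 1 passed with DESeq2's size factors, 1 with the stricter filter, 3 with DESeq2, and 0 to 3 when 1 mouse was left out (3 without mouse 16, 21, 29 or 31, and 1 without mouse 32). For the mean of regions 1 passed with DESeq2. The shares of all genes that passed in these fits were not counted. Between ileum and duodenum 3 passed, and 0 with the i5 index as a covariate and without the duodenum library of mouse 27, an alternative chosen after seeing the data. With the index alone, Slc5a1 was at -0.83 and Khk at -0.76 between ileum and duodenum, opposite to the reported direction. Leaving out 1 mouse put Khk between -0.0042 (without mouse 16) and 0.49 there, and between -1.03 and 0.24 for VSG against S_wm mice in the duodenum, where it was also 0.24 without only the duodenum library of mouse 27. Slc2a5 between ileum and duodenum had an adjusted p of 0.0513 without mouse 13, and Slc2a2 there 0.0484 without mouse 16. The cause of these shifts was not tested, other than by leaving out the libraries named. The replicate block (limma voom) put Slc2a2 between ileum and duodenum at -0.90 and changed no other call of the 7 genes. With 5 or 6 mice a group, standard errors of 0.39 to 0.65 on the log2 scale for the sugar genes in the duodenum limit what could be detected.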
